A study of Mus musculus with 2 samples.

Results

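The 10 genes described here encode the core of the mouse pyruvate dehydrogenase complex and the enzymes that switch it off and on. They were taken as a named list, matched by gene symbol, and all 10 were found among the 55536 genes of the tables. They comprise 4 kinases (Pdk1, Pdk2, Pdk3 and Pdk4), 2 phosphatases (Pdp1 and Pdp2) and 4 subunits of the complex (Pdha1, Pdhb, Dlat and Pdhx). The complex sits in the mitochondrial matrix and converts pyruvate to acetyl-CoA, which commits carbon from carbohydrate to the citric acid cycle. The kinases phosphorylate the alpha subunit of the decarboxylase and inactivate it, and the phosphatases remove the phosphate. In skeletal muscle Pdk4 is the isoenzyme known to respond to fasting, fatty acids and glucocorticoids, Pdk2 is widely expressed, and Pdk1 is a known target of the hypoxia response.

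The muscle was the gastrocnemius, a calf muscle of mostly fast fibres, from female B6CASTF1/J mice aged 14 days, and its total RNA was sequenced. These animals are first-generation hybrids of C57BL/6J and CAST/EiJ mice, with no treatment or engineered allele named in the labels. There were 2 libraries, labelled as biological replicates 1 and 2 of the same group and each made from 300 ng of RNA with ERCC spike-ins, so no condition was compared. Both library descriptions name 3 females, but the tissue text of replicate 2 names a female in the singular, and both tissues carry the same donor identifier, so it is not clear whether a library is a pool or 1 animal. Any p-value below sets 1 library against 1 library and covers counting error only, and the spread between the libraries may be technical. The gene tables held 35591969 and 42105815 counts in replicates 1 and 2, of which the 10 genes took 97480 and 65222. Fast-fibre markers summed to 84438 and 88834 TPM (transcript abundance corrected for gene length and scaled to a fixed sum), against 1599 and 2604 TPM for slow-fibre markers, so the labelled tissue carried its defining markers in both libraries.

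The 4 kinases are paralogues whose coding sequences, 1221 to 1302 bases long, were 63.9% (Pdk1 and Pdk4) to 66.9% (Pdk1 and Pdk2) identical over their aligned bases. The 60-base coding stretch below, within exon 10 of each gene, was the most alike of the stretches that lie in 1 exon and align without a gap; it shows how closely related the genes are that the counting had to separate. Capitals mark the 39 positions at which all 4 genes have the same base. The sequences are read 5′ to 3′ on the coding strand from the mm10 transcripts of GENCODE M21.
Pdk1, chr2:71897647-71897706, plus strand: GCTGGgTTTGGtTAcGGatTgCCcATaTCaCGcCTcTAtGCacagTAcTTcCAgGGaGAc
Pdk2, chr11:95027919-95027978, minus strand: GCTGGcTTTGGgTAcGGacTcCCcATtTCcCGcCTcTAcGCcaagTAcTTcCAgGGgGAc
Pdk3, chrX:93777363-93777422, minus strand: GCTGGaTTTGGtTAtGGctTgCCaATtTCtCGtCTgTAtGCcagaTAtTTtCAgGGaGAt
Pdk4, chr6:5486732-5486791, minus strand: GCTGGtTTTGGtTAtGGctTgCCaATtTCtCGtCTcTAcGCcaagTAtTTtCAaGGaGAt
Over the whole coding sequences the longest run shared by any pair was 29 bases, between Pdk3 and Pdk4, and it lies within this stretch. Pdk2 and Pdk4, the most abundant kinases, shared no run above 15 bases and were 66.7% identical. The deposited posterior standard deviation of the count, which exceeds 0 where reads are divided among genes, was 0 for every kinase in both libraries. Of the 10 genes Pdhb was the exception, at 3.69 and 3.41 counts of 7465 and 7404.

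By mean gene-table TPM, Pdk4 and the 2 decarboxylase subunits, Pdha1 and Pdhb, were the most abundant of the 10 genes. Pdk3 and Pdp2 were the least abundant. In a second deposited quantification Pdk4 was also highest on average, at 500 TPM. There Pdk2 (275 TPM) and Dlat (272 TPM) lay above Pdhb (270 TPM) and Pdha1 (258 TPM), so the places below Pdk4 depend on the quantification. Ordered by mean TPM, the genes ran Pdk4, Pdha1, Pdhb, Pdk2, Dlat, Pdhx, Pdp1, Pdk1, Pdk3 and Pdp2. Among the 15452 nuclear coding genes with a TPM above 0 in both libraries, Pdk4 stood at rank 128, Pdha1 at 285, Pdhb at 317, Pdk2 at 350 and Dlat at 443. Pdhx, Pdp1 and Pdk1 followed at ranks 1300, 1583 and 2091. Pdk3 and Pdp2 came far lower, at ranks 9652 and 9817. Neighbours in this order were taken as apart where the deposited intervals of their TPM did not overlap in either library and the order was the same in both, which held for 5 of the 9 neighbouring pairs. The confidence level of these intervals is not given in the sources used here. Pdk4 was highest in replicate 1, but in replicate 2, at 154 TPM, it lay below Pdha1 (187 TPM), Pdhb (163 TPM) and Pdk2 (161 TPM). Its interval there overlapped those of Pdhb and Pdk2. The intervals of Pdhb and Pdk2 and of Pdp1 and Pdk1 overlapped in replicate 2, and those of Pdk3 and Pdp2 overlapped in replicate 1.

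**Figure D1:**
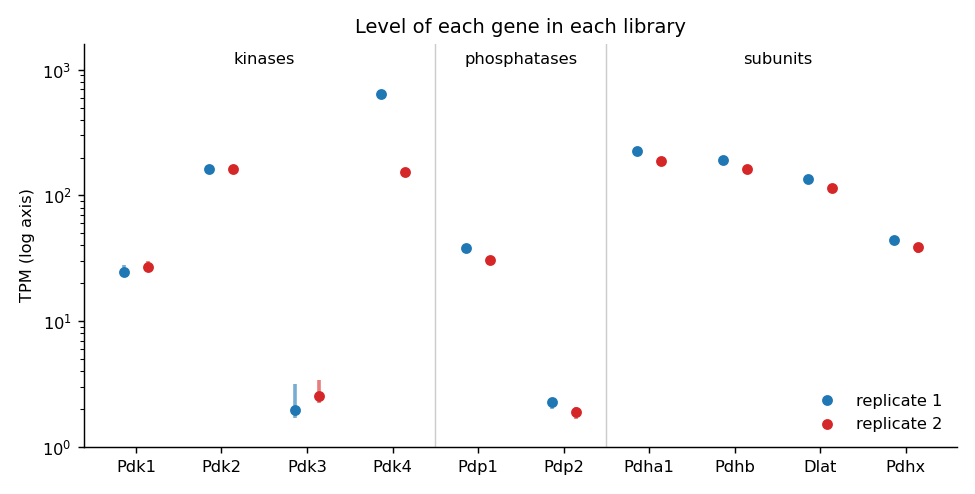
TPM of the 10 genes in replicates 1 and 2 on a log axis, with the deposited interval of the posterior mean TPM. Pdk4 lies at 641 and 154 TPM, while each of the other 9 genes has its libraries within 1.27-fold of one another.

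Among the kinases, Pdk4 (chr6:5483351-5496309, minus strand) was the one that separated the libraries. It measured 641 TPM in replicate 1 and 154 TPM in replicate 2, a mean of 398 ± 345 TPM (SD, n = 2). The intervals were 610.2 to 643 TPM and 143 to 158 TPM, so the libraries did not overlap. Its rank among 22015 nuclear coding genes was 65 in replicate 1 and 369 in replicate 2, and its share of all gene counts was 0.129% and 0.0310%. From counts of 46059 and 13054, scaled for library size and composition by the trimmed mean of M values (TMM), Pdk4 was 4.56-fold lower in replicate 2, a log2 ratio of −2.19 with a 95% interval of −2.22 to −2.16. The adjusted p of the two-sided exact binomial test, with Benjamini-Hochberg adjustment over all tested genes, was too small to be represented and is listed as 0.

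Pdk4 was the only 1 of the 10 genes called between the libraries, where a call takes both an adjusted p below 0.05 and a 2-fold difference. Over all 15734 genes tested 3.4% were called, 1.62% as lower and 1.78% as higher in replicate 2, and 1 of 10 is read against that background. At a 1.5-fold threshold Pdk4 was still the only 1 of the 10, beside 8.13% of all tested genes, 3.64% of them lower in replicate 2. The libraries therefore differ by more than counting error in many genes, with a coefficient of variation of 15.9% when they are fitted as 1 group. Among the 6323 genes with a summed count of at least 1000, the log2 ratios between the 5th and 95th percentiles ran from −0.46 to 0.39. Pdk4 was 1 of 6 of these genes at or below its own ratio, and 0 of them were as far above 0. In bulk muscle, fewer cells of a type and less RNA per cell cannot be told apart.

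Pdk2 (chr11:95026258-95041354, minus strand), by contrast, measured 162 and 161 TPM, a mean of 161 ± 0.969 TPM (SD, n = 2). Its scaled counts gave a log2 ratio of −0.18 (interval −0.22 to −0.14, adjusted p = 3.64e-17 by the exact binomial test), which was 0.04 with spike-in scaling, so its direction depends on the scale. Pdk1 (chr2:71873224-71903858, plus strand) measured 24.8 and 27.2 TPM. Its log2 ratio was −0.09 (−0.17 to −0.01, adjusted p = 0.0653, exact binomial test) with TMM, 0.04 with total counts and 0.13 with spike-ins, so it too has no settled direction. Pdk3 (chrX:93764607-93832201, minus strand), an X-linked isoenzyme, measured 1.98 and 2.52 TPM from 107 and 165 counts. Its log2 ratio of 0.25 had an interval of −0.11 to 0.62 (adjusted p = 0.312, exact binomial test) with TMM. With total counts it was 0.38 (adjusted p = 0.0787) and with spike-ins 0.47 (adjusted p = 0.0204) by the same exact test, so whether a difference was detected depends on the scaling. The 3 kinases other than Pdk4 together held 189 and 190.4 TPM, nearly level between the libraries.

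The mix of kinase transcripts therefore differed between the libraries, through Pdk4. Pdk4 made up 77.2% of the summed kinase TPM in replicate 1 and 44.7% in replicate 2 (61.0% ± 23.0, SD, n = 2). Pdk2 made up 19.5% and 46.7%, Pdk1 2.99% and 7.89%, and Pdk3 0.238% and 0.732%. Pdk4 exceeded Pdk2 by 3.96-fold in replicate 1, while in replicate 2 it stood at 0.958-fold of Pdk2 and their intervals overlapped. Per length, Pdk4 was thus resolved above Pdk2 in replicate 1 and not told apart from it in replicate 2. In counts not divided by length Pdk4 was 4.81-fold and 1.19-fold of Pdk2.

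**Figure D2:**
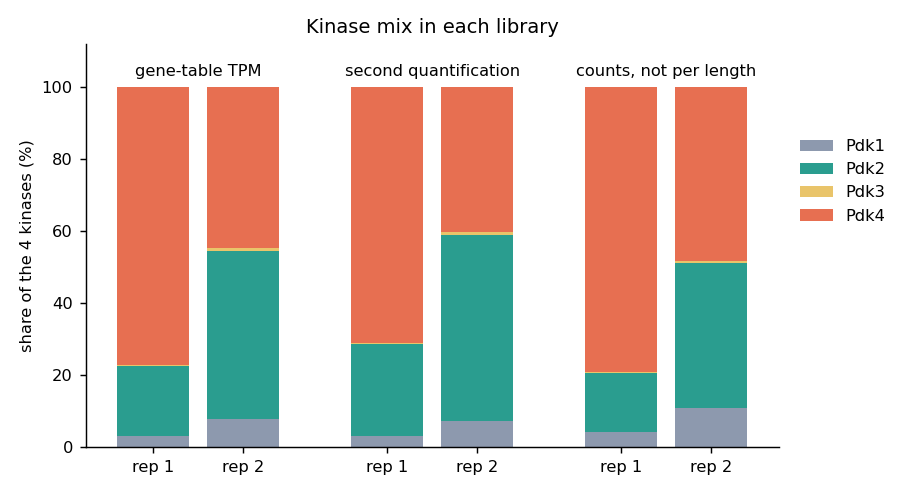
Share of each kinase in the summed TPM of Pdk1, Pdk2, Pdk3 and Pdk4, 1 bar for each replicate, beside the same shares in the second quantification and in counts not divided by length. In gene-table TPM Pdk4 holds 77.2% in replicate 1 and 44.7% in replicate 2, and its share is lower in replicate 2 in all 3 pairs of bars.

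The phosphatases were represented almost wholly by Pdp1. Pdp1, the calcium-sensitive catalytic isoenzyme of muscle (chr4:11958184-11966452, minus strand), measured 38.2 and 30.45 TPM. Pdp2 (chr8:104591451-104599026, plus strand) measured 2.28 and 1.91 TPM. Pdp1 thus made up 94.4% and 94.1% of phosphatase TPM (94.2% ± 0.195, SD, n = 2), a 16.8-fold and 15.9-fold excess over Pdp2 that hardly differed between the libraries. Both genes were somewhat lower in replicate 2 without reaching 2-fold. The log2 ratio was −0.49 for Pdp1 (−0.57 to −0.41, adjusted p = 2.32e-32) and −0.42 for Pdp2 (−0.63 to −0.20, adjusted p = 8.03e-04), by the exact binomial test. Across the other 3 scalings these ratios ran from −0.49 to −0.27 for Pdp1 and from −0.42 to −0.19 for Pdp2, where spike-in scaling gave Pdp2 an adjusted p of 0.13 by the same exact test. Pdpr, the regulatory subunit of the phosphatase and not among the 10 genes, measured 38.1 and 32.1 TPM, close to Pdp1.

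The subunits of the complex kept nearly the same proportions to one another in both libraries. Pdha1, the X-linked alpha subunit of the decarboxylase that carries the regulated phosphorylation sites (chrX:160122209-160138413, minus strand), measured 226 and 187 TPM. Pdhb, its beta subunit (chr14:8165996-8173025, minus strand), measured 190.6 and 163 TPM. The ratio of Pdha1 to Pdhb was 1.19-fold and 1.15-fold, a small excess of the alpha transcript that the intervals resolved in both libraries. The second quantification put Pdha1 at 0.975-fold and 0.936-fold of Pdhb, so which of these genes is higher depends on the quantification.

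Dlat, the dihydrolipoyl transacetylase that forms the core of the complex (chr9:50634633-50659780, minus strand), measured 134 and 115 TPM. Pdhx, which anchors the dihydrolipoyl dehydrogenase to that core (chr2:103021075-103073513, minus strand), measured 44.6 and 38.6 TPM. Dlat exceeded Pdhx by 3.01-fold and 2.97-fold. In the second quantification this excess was 5.70-fold and 5.95-fold, because that table gave Dlat 292 and 253 TPM, on average 2.19 times its gene-table level. The dihydrolipoyl dehydrogenase gene Dld itself, shared with other dehydrogenase complexes and not among the 10, measured 102 and 88.2 TPM. The testis form of the alpha subunit, Pdha2, had 0 gene-table counts in both libraries, which allows up to 3 counts in each. The second quantification gave it 1 and 0 counts.

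All 4 subunit genes were lower in replicate 2 by a like small amount. Their TPM fell short by 1.16-fold (Pdhx) to 1.21-fold (Pdha1). Their log2 ratios of scaled counts were −0.43 for Pdha1, −0.38 for Pdhb, −0.39 for Dlat and −0.46 for Pdhx. In scaled counts the shortfall was thus 1.30-fold (Pdhb) to 1.37-fold (Pdhx), so its size and the order of the genes depend on the measure. Of the 10 genes, 8 had an adjusted p under 0.05 by the exact binomial test at any fold, all but Pdk1 and Pdk3, beside 31.5% of all tested genes. That share is over genes with summed counts from 20 upward, and the test passes smaller differences at higher counts, so the 2 are not like for like. The median log2 ratio of the 10 genes was −0.40, with 9 below 0, against 0.01 over all tested genes. Apart from Pdk4 the largest absolute ratio was 0.49. Scaling by total counts moved the median of all genes by 0.13 and scaling by spike-ins by 0.22. The subunits stayed below 0 under both, at −0.33 to −0.25 and at −0.24 to −0.16. Of the genes called with TMM, 47.7% were lower in replicate 2, against 32.2% with total counts and 21.3% with spike-ins.

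**Figure D3:**
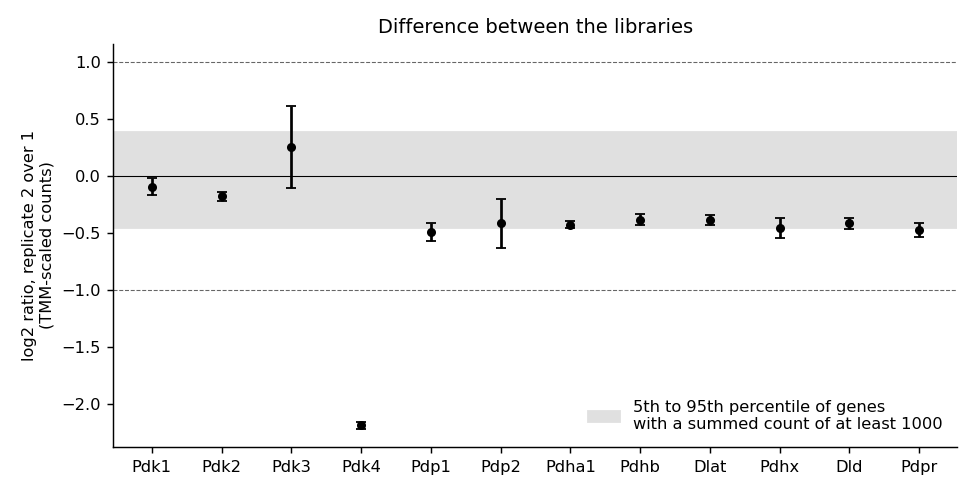
Log2 ratio of replicate 2 over replicate 1 of TMM-scaled counts for the 10 genes and for Dld and Pdpr, with 95% exact binomial intervals of counting error, dashed lines at a 2-fold change and a grey band from the 5th to the 95th percentile of genes with a summed count of at least 1000. Pdk4 stands at −2.19, and the other 9 of the 10 genes lie between −0.49 and 0.25.

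Set against the enzyme they regulate, the summed kinases lay above the summed subunits in replicate 1 and below them in replicate 2. Summed kinase TPM was 830.2 and 344, summed subunit TPM 596 and 504, and summed phosphatase TPM 40.5 and 32.4. Kinase transcripts were thus 1.39-fold of subunit transcripts in replicate 1 and 0.684-fold in replicate 2, a log2 ratio of 0.48 and −0.55. The excess of kinase over phosphatase transcripts was 20.5-fold and 10.6-fold. These sums compare transcripts per length and say nothing of enzyme amount or of phosphorylation.

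The transcript tables place these levels on particular messages. A total of 46 annotated transcripts belong to the 10 genes, and the leading one was the same in both libraries for 9 genes, all but Pdp1. It was also the same in both quantifications for 8, all but Pdp1 and Dlat. The shares below are of TPM, which is per length, so a short transcript can hold a larger share of TPM than of counts. Pdk4-201, the full-length coding message, held 72.6% and 74.3% of Pdk4 TPM in the first quantification and 72.6% and 67.6% in the second. It measured 465 and 114 TPM in the first, while Pdk4-202 measured 133 and 26.3 TPM and Pdk4-203 measured 43.0 and 13.3 TPM, so all 3 transcripts were lower in replicate 2. The remaining Pdk4 signal was split differently by the quantifications. The retained-intron transcript Pdk4-202, 412 bases long, held 20.7% and 17.1% in the first and 3.08% and 1.79% in the second. Its counts in the first were 1171 and 267, beside 44315 and 12581 for Pdk4-201. The short coding transcript Pdk4-203, 573 bases long, held 6.70% and 8.67% in the first and 24.3% and 30.6% in the second.

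The sequence that can tell these Pdk4 transcripts apart is short, and it is shown here because their shares rest on it. Pdk4-202 has 27 exonic bases found in no other Pdk4 transcript, in capitals after the last 30 bases of its exon 2 that it shares. Pdk4-203 has 0 such bases and differs by its first splice junction, where capitals mark the last 20 bases of exon 1 in each transcript and lower case the shared start of exon 2. All 3 are on the minus strand of chromosome 6 in mm10, and the coordinates of the junctions are those of the exon 1 bases.
Pdk4-202, chr6:5494863-5494919: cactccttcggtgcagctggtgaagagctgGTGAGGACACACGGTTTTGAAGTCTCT
Pdk4-201, chr6:5496033-5496052: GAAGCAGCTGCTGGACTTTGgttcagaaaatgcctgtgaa
Pdk4-203, chr6:5496175-5496194: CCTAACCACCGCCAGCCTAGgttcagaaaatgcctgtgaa
Pdk4-201 by comparison has 2755 exonic bases of its own. The shares of the minor Pdk4 transcripts are therefore less certain than that of Pdk4-201.

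For Pdk2, Pdk2-201 is the only coding transcript, and it held 97.1% and 96.8% in the first quantification but 66.9% and 70.9% in the second. The second gave the non-coding transcripts Pdk2-205 19.1% and 18.5% and Pdk2-204 13.8% and 10.1%, where the first gave them 0.18% and 0.44%, and 2.48% and 2.43%. Pdk1-201, the coding transcript of Pdk1, held 61.7% and 58.7% in the first and 58.5% and 54.3% in the second, beside a non-coding Pdk1-206 of 36.3% and 30.45%, then 29.96% and 28.1%. In counts of the first quantification Pdk1-206, 777 bases long, took 172 and 182, beside 2190 and 2637 for Pdk1-201. Pdk1-208, also non-coding, held 1.74% and 2.20% in the first and 9.04% and 14.5% in the second. For Pdk3, Pdk3-201 held at least 94.4% throughout. The kinase mix above thus included non-coding transcripts of Pdk1, Pdk2 and Pdk4. By the second quantification Pdk4 made up 71.2% and 40.4% of kinase TPM and was 2.80-fold and 0.779-fold of Pdk2.

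Pdp1 was the member whose transcripts could least be resolved. All 6 of its transcripts are coding, and all but Pdp1-203 have few or no exonic bases of their own. The first quantification spread Pdp1 over Pdp1-202 (40.4% and 14.2%), Pdp1-201 (25.5% and 27.3%), Pdp1-206 (17.0% and 31.5%) and Pdp1-203 (14.3% and 14.4%). The second assigned 88.8% and 87.8% to Pdp1-205, to which the first gave 2.85% and 7.65%, and 11.2% and 12.1% to Pdp1-203. Pdp1-201, Pdp1-202 and Pdp1-204 have 0 such bases, Pdp1-206 has 54 and Pdp1-205 has 173, whereas Pdp1-203, on which the quantifications were close, has 1648. The gene total of Pdp1 moved far less, from 38.2 and 30.45 TPM to 45.0 and 34.8 TPM. Pdp2 has 1 annotated transcript.

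Pdha1-201 held at least 98.4% of Pdha1 in either quantification. Pdhb-201 held 97.1% in both libraries of the first and 75.9% and 75.2% in the second, where the retained-intron Pdhb-207 took 19.6% in each library, against 2.46% and 2.45% in the first. Dlat-201, the only coding transcript of Dlat, held 54.9% and 55.1% in the first and 31.7% and 30.7% in the second. The non-coding Dlat-202 held 42.8% and 43.3%, then 32.6% and 17.0%. Dlat-202 is 770 bases long and Dlat-201 4035. In counts of the first quantification Dlat-202 took 1085 and 1083, beside 8166 and 8074 for Dlat-201. The retained-intron transcripts separated the quantifications further: Dlat-206 held 1.24% and 0% in the first and 29.5% and 29.8% in the second, and Dlat-203 held 0.68% and 1.00%, then 5.93% and 22.4%. The higher Dlat level of the second quantification thus came with more of its TPM on short non-coding transcripts, and Dlat-201 alone measured 73.7 and 63.1 TPM in the first and 92.6 and 77.6 TPM in the second. Pdhx-201 led Pdhx with 66.5% and 60.9%, then 77.9% and 76.5%, followed by the short coding Pdhx-203 with 33.2% and 38.9%, then 21.7% and 23.1%.

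**Figure D4:**
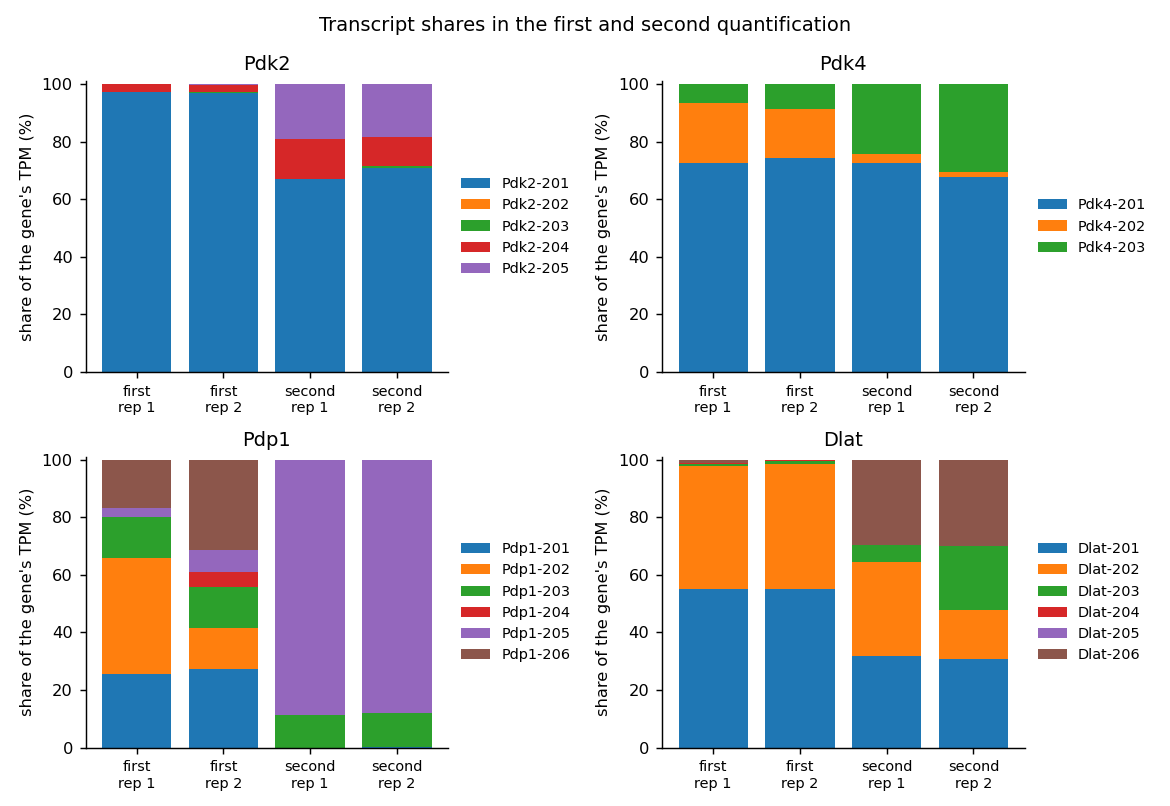
Share of each annotated transcript in the TPM of Pdk2, Pdk4, Pdp1 and Dlat, for replicates 1 and 2 in the first and the second quantification. Pdk4-201 leads in all 4 bars, at 67.6% to 74.3%, while Pdp1-205 holds 2.85% and 7.65% in the first and 88.8% and 87.8% in the second.

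The genes whose change between the libraries was nearest to that of Pdk4, by the absolute difference of log2 ratios over these 2 libraries among genes with a summed count of at least 1000, were Fkbp5, Cebpd, Ddit4, Klhl38 and Per1. Fkbp5, a co-chaperone of steroid receptors, measured 20.9 and 4.49 TPM (log2 ratio −2.22, a difference of 0.03 from Pdk4). Cebpd, a transcription factor, measured 12.9 and 3.76 TPM (−1.93). Ddit4, an inhibitor of mTORC1 signalling, measured 38.3 and 7.49 TPM (−2.52). Klhl38, a kelch-like protein, measured 13.2 and 4.08 TPM (−1.85). Per1, a component of the circadian clock, measured 35.4 and 10.8 TPM (−1.83). All 5 were lower in replicate 2, and with 2 libraries this measure sees only the direction and the size of 1 difference.

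Genes around the complex were counted in lists, 8 in all with 89 genes of which 87 were tested. Of these 15 were called, or 17.2%, and all 15 were lower in replicate 2, beside 1.62% of all tested genes. The calls were not spread evenly over the lists. For the other genes of the complex, Dld and Pdpr were tested and neither was called, at log2 ratios of −0.41 and −0.47. For pyruvate supply and other uses of pyruvate, 0 of 9 genes were called and the median log2 ratio was −0.38. The most abundant were lactate dehydrogenase A (Ldha) at 1247 and 1268 TPM and the muscle pyruvate kinase gene Pkm at 1193 and 1223 TPM. For the lipoylation and thiamine cofactor genes, 0 of 10 tested were called. Their median was −0.11 with TMM, 0.01 with total counts and 0.11 with spike-ins, so its sign depends on the scaling. The most abundant were the iron-sulphur cluster factors Bola3 at 109 and 104 TPM and Glrx5 at 31.1 and 32.7 TPM.

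The sister 2-oxoacid dehydrogenase complexes are built on the same plan. None of their 9 genes reached 2-fold, although 8 had an adjusted p under 0.05 by the exact binomial test, beside 31.5% of all tested genes. As above, the test passes smaller differences at higher counts, so these shares are not like for like. All 9 ratios were below 0, from −0.72 to −0.06, and their median was −0.39, beside −0.41 for the 4 subunits, which ran from −0.46 to −0.38. With spike-in scaling 8 of the 9 were below 0. Ogdh measured 289 and 242 TPM and Dlst 175 and 142 TPM, the decarboxylase and the core transferase of the 2-oxoglutarate complex. For hypoxia-responsive genes, 0 of 11 were called, and the median was −0.16 with TMM but 0.06 with spike-in scaling. Their most abundant members were Bnip3 at 62.9 and 47.0 TPM and the hexokinase gene Hk2 at 58.4 and 43.0 TPM.

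Of 15 genes that encode known regulators of Pdk4 transcription, 1 was called. Klf15, a transcription factor induced by fasting and glucocorticoids, measured 15.2 and 7.39 TPM (log2 ratio −1.20), a call that was lost with spike-in scaling at −0.98. The list's median was −0.50. Its most abundant members were Cebpb, at 58.0 and 32.6 TPM (−0.99, just short of 2-fold), and the glucocorticoid receptor gene Nr3c1, at 28.2 and 36.0 TPM (0.16). Of the 15 ratios 12 were below 0, like that of Pdk4, and 3 were above 0, that of the receptor gene among them.

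Of 15 genes known to respond to fasting or fatty acids, 4 were called, all lower in replicate 2, and the median was −0.71. They were the mitochondrial carrier Ucp3 at 60.7 and 28.3 TPM (−1.26), the lipid droplet protein Plin5 at 17.5 and 8.57 TPM (−1.19), the lipase inhibitor Angptl4 at 8.91 and 4.66 TPM (−1.07) and the fatty acid binding protein Fabp3 at 601 and 323 TPM (−1.06). The fatty acid transporter Cd36 measured 214 and 133 TPM (−0.87) and was not called. With TMM all 15 ratios were below 0, though that of Plin2 (27.9 and 34.0 TPM) was only −7.84e-04. In the second quantification 14 of 15 were below 0. With total counts or spike-ins 13 of 15 were, and these scalings called 2 and 1 genes.

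The list of glucocorticoid- and FoxO-responsive genes held most of the calls, with 10 of 16 lower in replicate 2 and a median of −1.47. All 16 ratios were below 0 under TMM, DESeq2 size factors, total counts and spike-ins, and the last 2 scalings called 9. Besides Fkbp5, Cebpd, Ddit4 and Per1 above, the called genes included the metallothioneins Mt2 at 50.8 and 9.84 TPM (−2.51) and Mt1 at 31.9 and 9.08 TPM (−2.01). The ubiquitin ligase Fbxo32 measured 24.4 and 8.00 TPM (−1.77), and the kinase Sgk1, the most abundant of the list, 192 and 67.0 TPM (−1.68). Errfi1, an inhibitor of epidermal growth factor receptor signalling, measured 17.0 and 8.31 TPM (−1.25) and Tsc22d3, the glucocorticoid-induced leucine zipper, 106 and 57.9 TPM (−1.08). Pdk4 itself was in none of these lists, which were assembled with earlier results of these libraries known, so their counts describe the libraries and carry no independent weight.

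**Figure D5:**
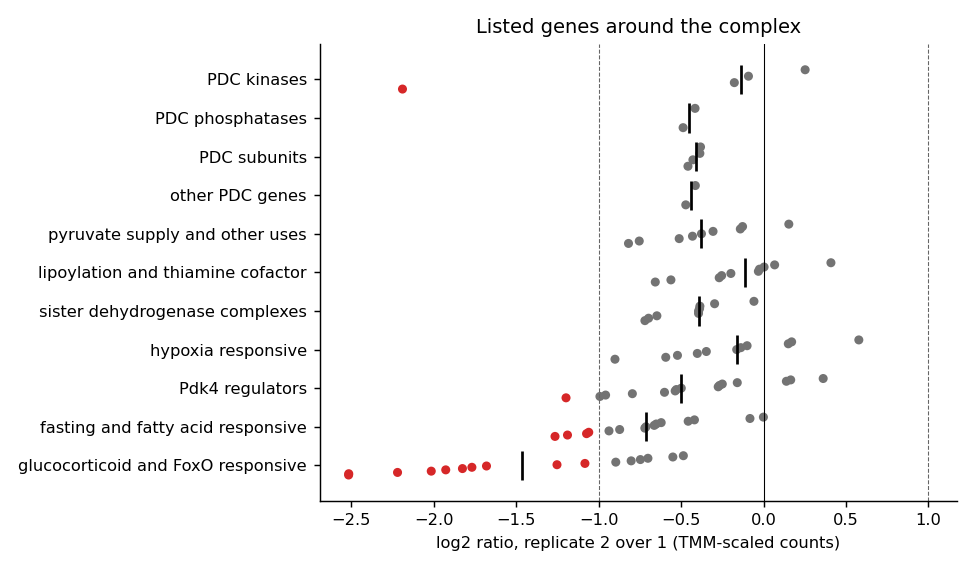
Log2 ratio of replicate 2 over replicate 1 for every tested gene of the kinase, phosphatase, subunit and pathway lists, 1 point for each gene, red where called, with a bar at each list's median and dashed lines at a 2-fold change (PDC, pyruvate dehydrogenase complex). Points of the glucocorticoid and FoxO list lie between −2.52 and −0.49, while those of the subunits lie between −0.46 and −0.38.

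Markers of other cells in the muscle also differed between the libraries, and their part in the difference of Pdk4 was not tested. Red-cell genes were lower in replicate 2, with 6 of 6 called (2 of 6 with spike-in scaling) and a summed level of 2949 and 1495 TPM, from Hbb-bs at 1066 and 535 TPM to Slc4a1 at 1.82 and 0.29 TPM. The Schwann-cell genes Mbp, at 52.8 and 143 TPM, and Pmp22, at 73.4 and 165 TPM, were called as higher. Among mural-cell genes 1 of 6 was called, Acta2 at 119 and 306 TPM. The list summed to 276 and 467 TPM, a difference that lay almost wholly in Acta2, with 4 of 6 ratios above 0 and 2 below. None of the markers of fast fibres (9), slow fibres (8), fibro-adipogenic cells (8), adipocytes (8), endothelium (6), macrophages (6) or tendon (6) was called, a call taking both the test and a 2-fold difference. Among these, 7 of 8 slow-fibre, 6 of 8 fibro-adipogenic, 4 of 6 macrophage and 6 of 6 tendon markers had ratios above 0. Ratios below 0 were held by 7 of 9 fast-fibre and 5 of 6 endothelial markers with TMM, and by 2 of 9 and 3 of 6 with spike-in scaling. The fibro-adipogenic list summed to 2930 and 4662 TPM. Most of that sum and of its difference lay in the collagens Col1a1 (1128 and 1958 TPM), Col1a2 (676 and 1119 TPM) and Col3a1 (759 and 1135 TPM). Adipocyte markers summed to 178 and 142 TPM, of which Fabp4 held 159 and 122 TPM, with 4 of 8 ratios above 0, endothelial markers to 211 and 197 TPM, macrophage markers to 51.5 and 61.1 TPM and tendon markers to 174 and 247 TPM. Brown fat, a tissue that expresses Pdk4, had its defining gene Ucp1 at 0 counts and Elovl3 at 0 and 1 counts, with Cidea at 1.82 and 1.73 TPM and Dio2 at 0.50 and 0.89 TPM. Its list summed to 744 and 621 TPM, of which Cox8b held 742 and 618 TPM. Of the 6 heart markers Myl7, Nppa and Nppb had 0 counts in both libraries, Tbx20 had 1 and 0 counts, and Myl4 measured 5.43 and 7.66 TPM. The sarcoplasmic reticulum regulator Sln, which skeletal muscle also expresses, was called at 1.25 and 8.18 TPM.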

How the data were processed

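Per the labels, total RNA of 2 gastrocnemius libraries was sequenced with ERCC spike-ins. Per the submitters' processing notes the assembly is mm10 and the annotation GENCODE M21. Which aligner and quantifiers made the tables is not given in the sources used here. Gene tables as deposited hold expected counts (a read may be divided among genes), TPM, a posterior mean TPM and its interval. They also hold, as a signal value deposited beside each count, its posterior standard deviation. The first deposited transcript table holds the percent of each gene's TPM on each transcript. A second deposited transcript quantification holds estimated counts and TPM, summed here per gene. The mm10 reference is C57BL/6J sequence, so reads from CAST/EiJ alleles may map less well, which was not tested.

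Expected counts were rounded, scaled with TMM (edgeR 4.0.16, factors 0.957 and 1.05; R 4.3.3) and compared by an exact binomial test, two-sided (scipy 1.17.1), for all genes whose counts summed to 20 or more, with Benjamini-Hochberg adjustment. The quasi-likelihood test of edgeR cannot be used with a single library on each side, since no residual degrees of freedom remain. A call needed an adjusted p under 0.05 and 2-fold. Log2 ratios use a prior count of 0.5 and 95% Clopper-Pearson intervals, which cover counting error only. On simulated counts for 15724 genes with counting error alone, 100% of 3-fold and 4-fold, 96% of 0.25-fold and 2% of 1.5-fold changes were called (50 genes each). A count of 0 allows up to 3. Alternatives were the second quantification, posterior mean TPM, TPM over nuclear coding genes, counts, DESeq2 1.42.0 size factors, total counts, spike-in totals, other count minimums, a 1.5-fold threshold and leaving out a library.

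The 10 genes and the gene lists were chosen with earlier results of these data known. Named are all 10 genes, transcripts holding at least 10% in any library and quantification, the called and the 2 most abundant genes of each pathway list, called markers, and the 5 genes nearest to Pdk4 in log2 ratio. Of the other markers and of pathway genes, some were named as absent or as background after their values were seen. Part of the Schwann-cell marker list is not reported here.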

Additional observations from a re-analysis of the deposited data

How the results depend on the processing

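Pdk4 was called lower in replicate 2 under every scaling, count minimum and quantification tried, with log2 ratios of −2.19 to −1.97. Among the log2 ratios of the 10 genes between the libraries, those that changed sign were Pdk1 at 0.036 with total counts and 0.13 with spike-ins, and Pdk2 at 0.043 with spike-ins. A summed count of at least 100 left 253 called genes of 535, since fewer genes were tested, and a 1.5-fold threshold raised the called pathway genes from 15 to 37. Summed TPM of the 10 genes was 1173 in the gene tables, 1704 in the second quantification and 2420 over nuclear coding genes. Pdp1 made up 93.8% of phosphatases in the second quantification and 88.0% in counts not divided by length. The log2 ratio of Pdha1 over Pdhb was 0.22 in TPM, changed sign to −0.066 in the second quantification and was 1.19 in counts, and that of Dlat over Pdhx was 1.58, 2.54 and 2.08. The mean log2 ratio of summed kinases over subunits was −0.03 in TPM and 0.15 in counts, also a change of sign, beside an SD of 0.73 between the libraries. Counts differ from TPM by the division by length, and TPM over nuclear coding genes is gene-table TPM rescaled over fewer genes. Those differences thus follow from the units. The cause of the other differences was not tested. With 1 library left out each value is that of the other library: summed TPM ran from 880.3 to 1467, the Pdk4 share of kinases from 44.7% to 77.2%, the Pdp1 share of phosphatases from 94.1% to 94.4%, the Pdha1 over Pdhb ratio from 0.20 to 0.25, the Dlat over Pdhx ratio from 1.57 to 1.59 and the kinase over subunit ratio from −0.55 to 0.48. The ratio between libraries needs both, so it has no such value. No paired analysis was possible because there is 1 group.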
